A study of Homo sapiens with 4 samples.

Results

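The MMP, ADAM and TIMP protease system was examined in the human bladder carcinoma line T24, whose cells carried an empty vector (EV) or the catalytic domain of TET1 (TET1-CD). Genes were taken by symbol: MMP, ADAM or ADAMTS followed by a number and at most 1 letter, and TIMP1 to TIMP4. This gave 74 of the 57879 genes in the files, namely 24 MMP, 27 ADAM, 19 ADAMTS and 4 TIMP genes. RNAseq was available for 2 EV libraries, which the labels call control, and 2 TET1-CD libraries. Both groups were T24 cells grown in RPMI with 10% FCS, and the labels describe all 4 libraries as induced without saying by what. The TET1-CD cells expressed the FLAG-tagged catalytic domain of TET1 from a lentiviral vector after puromycin selection, and the EV cells carried the same vector without the insert. TET1 oxidizes 5-methylcytosine in DNA to 5-hydroxymethylcytosine, and the comparison asks how the transcript levels of these genes differ when its catalytic domain is expressed. Neither DNA methylation nor protein was measured in these libraries. Nothing in the labels says that the libraries of a group came from separate cultures, so p-values measure the spread between these libraries, which may be technical. Since the whole culture was lysed, fewer cells that express a gene and less RNA per cell cannot be told apart.

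The libraries held 17442143 to 20295266 estimated fragments, and the totals of the groups overlapped. TET1 had 111 and 83 counts in the EV and 2939 and 3310 in the TET1-CD libraries, a log2 fold change of 5.02 (SE 0.08, adjusted p = 4.9e-10, edgeR's quasi-likelihood test), and the files do not separate the cloned domain from the endogenous transcript. Of 14 urothelial markers, KRT7, KRT8 and KRT18 were at 621 to 1169 CPM (counts scaled to the number of fragments in the library), whereas KRT5 and KRT20 were at 0 and 6 markers had at most 3 counts in every library. Of the 7 urothelial markers tested, 4 passed the adjusted p, and the list summed to 2367 and 2348 CPM in EV against 2674 and 2636 CPM in TET1-CD cells. KRT7 was at 909.6 and 922.3 against 1169 and 1153 CPM, KRT19 at 5.08 and 3.81 against 9.39 and 8.61 CPM, and GATA3 at 0.938 and 1.10 against 2.62 and 2.24 CPM. KRT8 went the other way, at 774.1 and 777.5 CPM in EV against 743.0 and 729.1 CPM in TET1-CD cells. The 7 fibroblast markers summed to 5.43 and 5.08 CPM in EV against 17.0 and 17.7 CPM in TET1-CD cells. COL1A1 made up 15.1 and 16.0 CPM of the latter, and PDGFRB was at 1.04 and 0.750 in EV against 1.25 and 1.27 CPM in TET1-CD cells. COL1A2, COL3A1, DCN, LUM and PDGFRA were at or near 0 in every library. Of the 2 fibroblast markers tested, 1 passed the adjusted p. The 7 leukocyte markers summed to 26.4 and 36.0 CPM in EV against 24.31 and 24.04 CPM in TET1-CD cells, and 1 of the 3 tested passed the adjusted p. CD68 made up 23.0 to 33.3 CPM of these sums, ITGAM was at 1.09 and 1.67 against 0.171 and 0.408 CPM, and the defining gene PTPRC stayed at or below 0.114 CPM. The endothelial markers found summed to at most 1.17 CPM. The part of these genes in the results below was not tested.

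Matrix metalloproteinases (MMPs) are zinc enzymes that cut collagens, gelatin, proteoglycans and other matrix proteins, either after secretion or, for the membrane type, from the cell surface. ADAMs are membrane proteins with a disintegrin domain, and those with an active protease domain release the outer part of growth factors, cytokines and receptors. ADAMTS proteases are secreted and bind the matrix through thrombospondin repeats, where they cut proteoglycans or process procollagen. The 4 TIMPs are secreted inhibitors that block the active site, and TIMP3, which binds to the matrix, also blocks ADAM17 and several ADAMTS enzymes. MMP14 and TIMP2 together are known to activate MMP2, a gelatinase associated with the invasion of carcinoma cells.

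Because TET1 acts on methylated cytosines next to guanine (CpG), the promoters of 4 genes are shown: TIMP3, ADAMTS12 and ADAM17, the genes of this group with the smallest p-values, and MMP10 as a promoter with few CpG sites. Each is 300 bases long, 250 before and 50 after the RefSeq start of the gene. The sequences are RefSeq's and were placed on GRCh37 by exact match, each at 1 site. They are written 5′ to 3′ on the strand of the gene, with every CpG in capitals. The TIMP3 window is chr22:33197441-33197740 on the plus strand, that of ADAMTS12 chr5:33892046-33892345 on the minus strand, that of ADAM17 chr2:9695910-9696209 on the minus strand and that of MMP10 chr11:102651310-102651609 on the minus strand.
TIMP3: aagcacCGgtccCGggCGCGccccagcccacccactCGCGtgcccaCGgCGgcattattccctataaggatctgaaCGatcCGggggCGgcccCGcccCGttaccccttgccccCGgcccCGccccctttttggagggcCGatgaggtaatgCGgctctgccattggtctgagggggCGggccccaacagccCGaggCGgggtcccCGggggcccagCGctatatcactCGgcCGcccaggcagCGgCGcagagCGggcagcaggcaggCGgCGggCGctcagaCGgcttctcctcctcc
ADAMTS12: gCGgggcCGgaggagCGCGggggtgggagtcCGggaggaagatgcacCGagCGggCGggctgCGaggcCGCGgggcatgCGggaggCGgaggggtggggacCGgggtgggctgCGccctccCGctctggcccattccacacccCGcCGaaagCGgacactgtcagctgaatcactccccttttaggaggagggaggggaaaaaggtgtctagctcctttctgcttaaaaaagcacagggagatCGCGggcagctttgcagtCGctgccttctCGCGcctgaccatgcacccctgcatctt
ADAM17: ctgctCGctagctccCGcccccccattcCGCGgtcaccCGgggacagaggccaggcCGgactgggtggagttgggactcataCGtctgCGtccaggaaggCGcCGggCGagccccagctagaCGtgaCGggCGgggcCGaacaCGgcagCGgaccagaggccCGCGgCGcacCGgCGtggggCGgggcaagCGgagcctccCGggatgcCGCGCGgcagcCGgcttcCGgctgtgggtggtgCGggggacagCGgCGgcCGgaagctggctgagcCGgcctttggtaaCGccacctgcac
MMP10: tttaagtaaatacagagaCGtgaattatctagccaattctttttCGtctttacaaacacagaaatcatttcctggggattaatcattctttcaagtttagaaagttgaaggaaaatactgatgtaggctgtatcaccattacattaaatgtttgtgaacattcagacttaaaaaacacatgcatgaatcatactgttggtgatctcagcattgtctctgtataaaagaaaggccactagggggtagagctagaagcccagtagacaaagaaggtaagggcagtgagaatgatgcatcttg
The windows of TIMP3, ADAMTS12 and ADAM17 hold 31, 24 and 36 CpG sites, and that of MMP10 holds 2.

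Of the 74 genes, 38 had enough counts for a test, namely 12 MMP, 12 ADAM, 10 ADAMTS and all 4 TIMP genes. The other 36 had too few counts, 16 of them with 0 in every library and 29 with at most 3. A count of 3, taken as the floor, corresponds to 0.148 to 0.172 CPM and covers counting error only. MMP2 was at 0 in all 4 libraries. MMP9, the other gelatinase, had 3 and 6 counts in EV against 1 and 3 in TET1-CD cells, and the groups overlapped. MMP8 and MMP28 were also at 0, and MMP7, which is known as a product of epithelial cells, reached 2 counts in 1 TET1-CD library. A difference in these genes was not detectable at this depth. Many of the undetected ADAM genes, such as ADAM2, ADAM7, ADAM18 and ADAM30, are known for expression in testis or epididymis, and they had between 0 and 2 counts.

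Compared per length, in FPKM summed over the transcripts of a gene, an inhibitor was the most abundant member. TIMP1 had a mean of 249.5 FPKM over the 4 libraries, followed by MMP14 with 112.2, TIMP2 with 70.1 and ADAM9 with 61.6. ADAM15, ADAMTS12 and ADAM10 came next, with 38.1, 37.6 and 30.3 FPKM, then ADAM17 with 17.4. The libraries of ADAMTS12, from 28.3 to 51.4 FPKM, overlapped those of its neighbours ADAM15 and ADAM10, which ran from 35.3 to 42.2 and from 28.1 to 35.0 FPKM. Short transcripts weigh heavily in such sums: in EV replicate 1, transcript ENST00000515401 held 10.6% of the ADAMTS12 fragments but 24.4 of its 51.4 FPKM, and ENST00000547074 held 6.72% of the MMP14 fragments but 34.0 of its 112.1 FPKM. Each family rested on few genes. On the CPM scale, MMP14 made up 84.2% of the MMP sum, ADAMTS12 61.4% of the ADAMTS sum and ADAM9 35.1% of the ADAM sum, while TIMP2 and TIMP1 made up 50.9% and 47.3% of the TIMP sum.

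**Figure D1:**
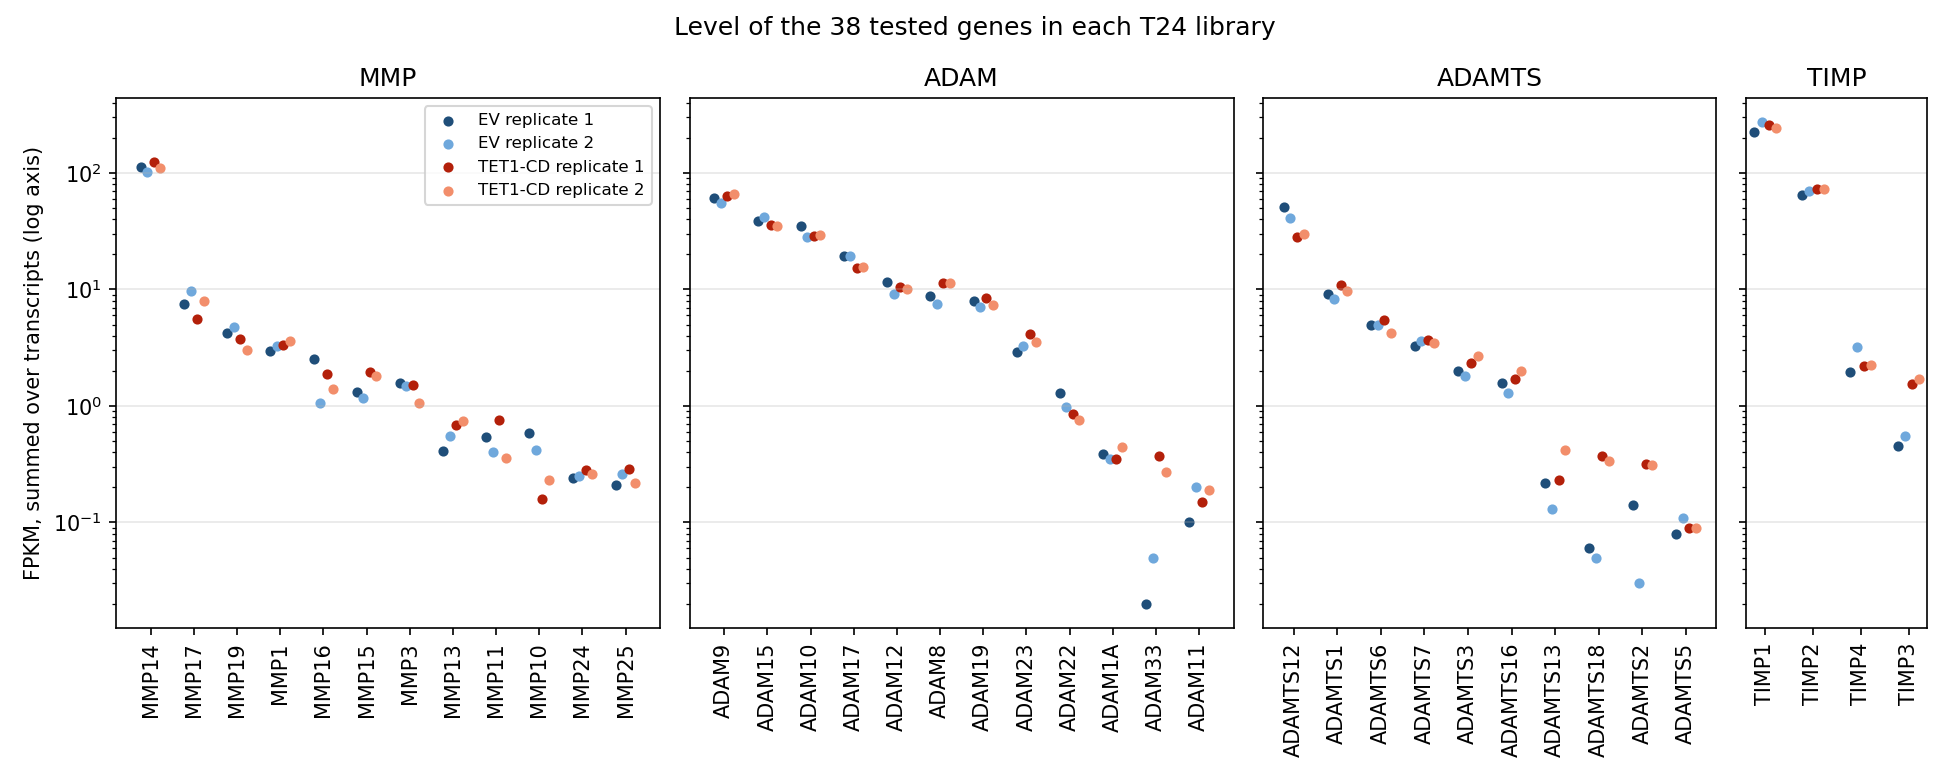
Level of the 38 tested genes in FPKM on a log axis, with 1 point for each library and the genes of each family ordered by mean level. TIMP1 and MMP14 stand above 100 FPKM in every library, and TIMP3 and ADAM33 show both TET1-CD points above both EV points.

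Among the 38 tested genes, 8 differed between TET1-CD and EV cells at an adjusted p under 0.05 (edgeR's quasi-likelihood test, Benjamini-Hochberg over all 14573 genes tested). TIMP3, ADAM33, MMP15, ADAM8 and ADAMTS3 rose, and ADAMTS12, ADAM17 and MMP17 fell. This is 21.1% of the tested members, beside 19.7% of all genes tested (10.0% up and 9.61% down), so the share was near the background. With a fold change of at least 2 in addition, TIMP3 and ADAM33 remained, 5.26% of the members beside 3.77% of all genes (2.72% up and 1.04% down). ADAM33 had enough counts for the test only through the TET1-CD libraries, where it is high, so its call supports nothing about the members, and with at least 10 counts asked of every library TIMP3 alone remained. The libraries of the groups did not overlap in 23 of the 38 genes (60.5%, beside 61.0% of all genes), 16 higher and 7 lower in TET1-CD cells, beside 30.8% and 30.2% of all genes. The median log2 fold change was 0.08 over the members and 0.00 over all genes tested. By family, 2 of 12 MMP, 3 of 12 ADAM, 2 of 10 ADAMTS and 1 of 4 TIMP genes passed the adjusted p, with median log2 fold changes of -0.05, 0.07, 0.20 and 0.06. With 1 library left out, the spread comes only from the group that keeps 2 libraries, so only log2 fold changes are given for such fits.

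**Figure D2:**
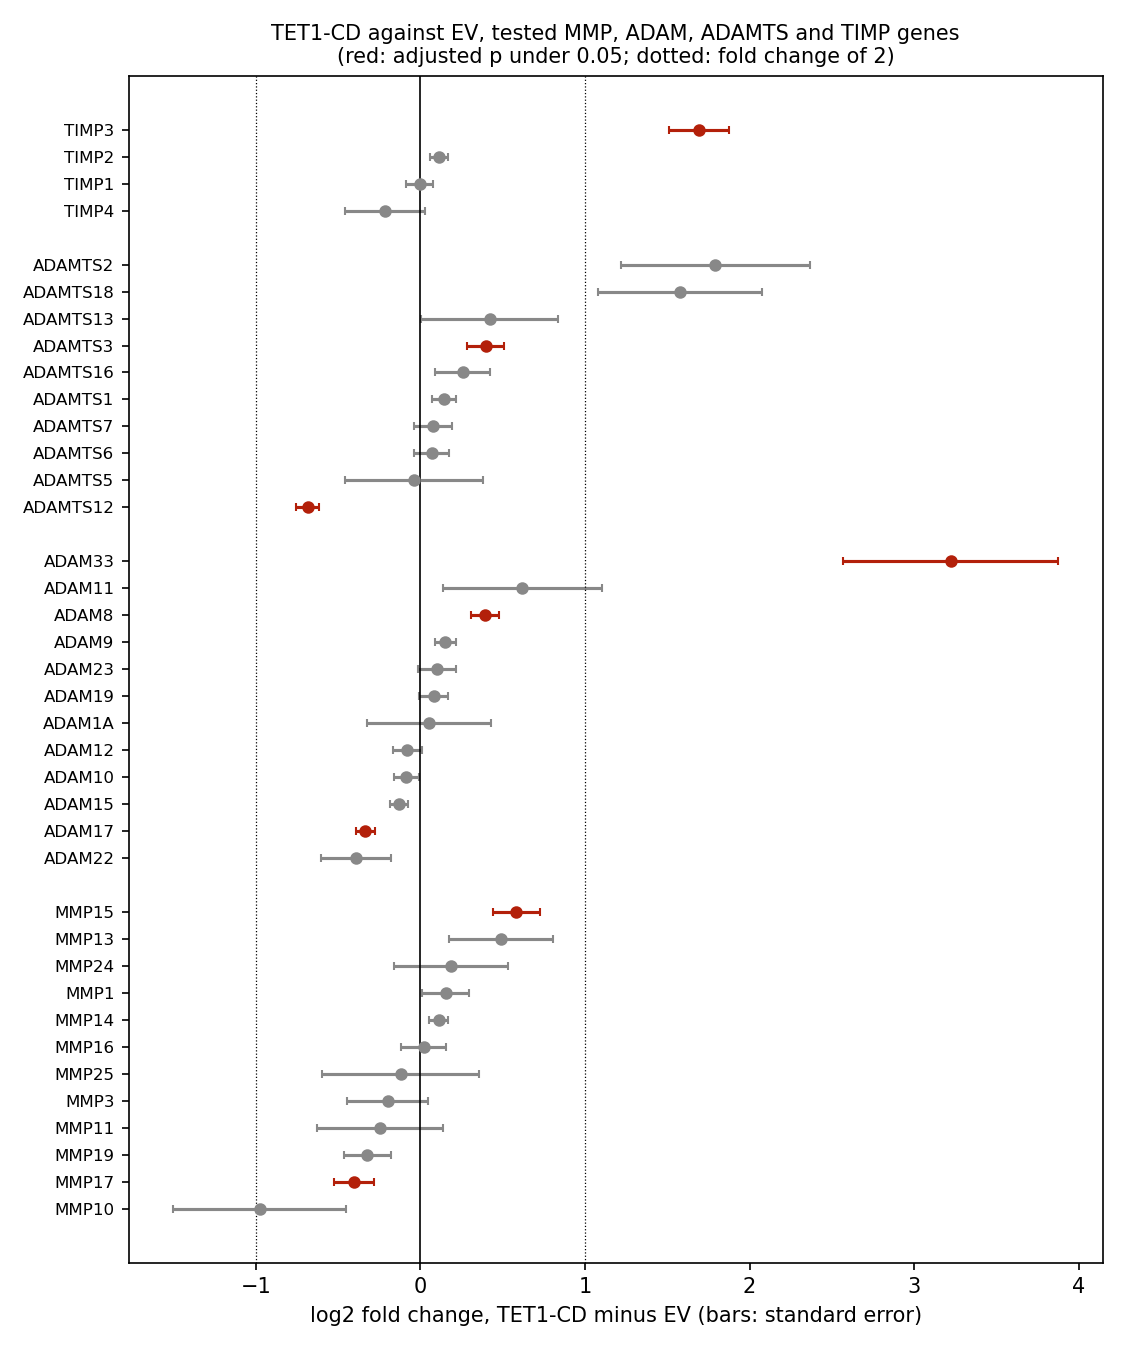
Log2 fold change of TET1-CD against EV for the 38 tested genes by family, with bars for the standard error and red for an adjusted p under 0.05 by edgeR's quasi-likelihood test. Of the red points, TIMP3 (1.69) and ADAM33 (3.22) lie beyond the dotted line of a fold change of 2, as do the grey ADAMTS2 (1.79) and ADAMTS18 (1.58), and ADAMTS12 (-0.69) is the lowest of the red points.

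TIMP3, the matrix-bound inhibitor, was the TIMP that passed the test. It lies on chromosome 22 of GRCh37 from 33197687 to 33259030, within SYN3 on the other strand, and SYN3 had 0 counts in every library. Z98256.1, which also overlaps it on the other strand, had 0 and 3 counts in EV against 3 and 8 in TET1-CD cells. TIMP3 had 42 and 44 counts in EV replicates 1 and 2, and 124 and 153 in TET1-CD replicates 1 and 2, all from 1 transcript. The groups did not overlap, with each TET1-CD library higher than the EV libraries. Scaled to a common library size, the counts were 43.1 ± 6.17 (SD, n = 2) and 138.8 ± 9.73 (SD, n = 2), a log2 fold change of 1.69 (SE 0.18, adjusted p = 0.000234, edgeR) or 3.24-fold. Over the 11 alternatives the log2 fold change ran from 1.54 to 1.84, and it passed the threshold in each that kept all libraries. Its level stayed low beside the other inhibitors: TIMP3 made up 0.154% and 0.159% of the TIMP FPKM in EV against 0.462% and 0.531% in TET1-CD cells.

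The other TIMPs did not pass the test. TIMP1, an inhibitor of most secreted MMPs, had 4065 and 4222 counts in EV against 3990 and 4235 in TET1-CD cells, and the groups overlapped. Its log2 fold change was -0.004 (SE 0.08, adjusted p = 0.981, edgeR), and its sign changed over the alternatives. The value was -0.15 without EV replicate 1, 0.14 without EV replicate 2 and 0.03 without TET1-CD replicate 2. TIMP2, which inhibits MMP14 and also takes part in activating MMP2, had 4480 and 4114 counts in EV against 4363 and 4861 in TET1-CD cells (log2 fold change 0.11, SE 0.06, adjusted p = 0.187, edgeR). Its groups did not overlap after scaling. Without EV replicate 2 the log2 fold change of TIMP2 was 0.16, and without EV replicate 1 it was 0.055. Transcript ENST00000585421 held 68.7% to 80.2% of the TIMP2 fragments. TIMP4 had 65 and 93 counts in EV against 64 and 72 in TET1-CD cells (log2 fold change -0.22, SE 0.25, adjusted p = 0.59, edgeR). Its groups overlapped, as did those of TIMP1.

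ADAMTS12, a secreted protease that is known to cut cartilage oligomeric matrix protein, had the smallest p-value of the group. It lies on chromosome 5 from 33523640 to 33892297 on the minus strand. Its counts were 4707 and 3488 in EV against 2318 and 2707 in TET1-CD cells, and the groups did not overlap. Normalized counts were 4053 ± 410.1 (SD, n = 2) and 2522 ± 78.7 (SD, n = 2), a log2 fold change of -0.69 (SE 0.07, adjusted p = 0.00018, edgeR), or 1.61-fold lower in TET1-CD cells. Its main transcript, ENST00000504830, had 4157 and 3154 fragments in EV against 2066 and 2406 in TET1-CD cells. Over the 11 alternatives the log2 fold change ran from -0.79 to -0.59, and the fall passed the threshold in each that kept all libraries.

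The other ADAMTS genes were expressed at a lower level. ADAMTS3, a procollagen amino-terminal protease that also takes part in activating the lymphatic growth factor VEGFC, rose from 224 and 175 to 241 and 278 counts (log2 fold change 0.40, SE 0.11, adjusted p = 0.0322, edgeR), and DESeq2 gave an adjusted p of 0.188. The call was also lost without EV replicate 2 (0.0593), TET1-CD replicate 1 (0.166) or TET1-CD replicate 2 (0.21). The groups of ADAMTS3 did not overlap. ADAMTS2, the main processing enzyme of the amino-terminal propeptide of type I procollagen, missed the threshold with 5 and 3 counts in EV against 12 and 16 in TET1-CD cells (log2 fold change 1.79, SE 0.57, adjusted p = 0.0534, edgeR). ADAMTS18 had 7 and 5 counts in EV against 14 and 22 in TET1-CD cells (log2 fold change 1.58, SE 0.50, adjusted p = 0.0514, edgeR). ADAMTS2 and ADAMTS18 had enough counts for the test only through the TET1-CD libraries, where they are high, so their p-values support nothing about the members. They were not tested with at least 10 counts asked of every library, and both were named after their values were seen. Both had non-overlapping groups, as did 61.0% of all genes tested. ADAMTS1, a protease of aggrecan and versican, had 951 and 747 counts in EV against 905 and 945 in TET1-CD cells (log2 fold change 0.14, adjusted p = 0.203, edgeR). Its groups did not overlap after scaling. ADAMTS6 and ADAMTS7 had log2 fold changes of 0.07 and 0.08 (adjusted p = 0.7 and 0.693, edgeR), and their libraries overlapped.

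Among the ADAMs, ADAM17, which releases TNF and the ligands of the EGF receptor from the cell surface, fell. It lies on chromosome 2 from 9628615 to 9695921 on the minus strand. Its counts were 1700 and 1459 in EV against 1159 and 1321 in TET1-CD cells, and normalized counts were 1571 ± 3.93 (SD, n = 2) and 1246 ± 17.5 (SD, n = 2). The groups did not overlap, and the log2 fold change was -0.34 (SE 0.06, adjusted p = 0.00331, edgeR). Without TET1-CD replicate 1 or 2 the log2 fold change was -0.32 or -0.349. ADAM17 overlaps IAH1 on the other strand, which had a log2 fold change of 0.34 (adjusted p = 0.0172, edgeR), and whether the counting used the strand is not given in the sources used here.

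ADAM8, a protease known from leukocytes and carcinoma cells, rose. It had 441 and 401 counts in EV against 512 and 584 in TET1-CD cells, with no overlap (log2 fold change 0.39, SE 0.09, adjusted p = 0.0104, edgeR). Without TET1-CD replicate 1 or 2 the log2 fold change was 0.408 or 0.377. ADAM33, known for expression in mesenchymal cells and from genetic studies of asthma, had 1 and 3 counts in EV against 21 and 18 in TET1-CD cells. The sums of 4 and 39 counts give a ratio of 9.85 after scaling by library size (95% exact interval 3.55 to 37.95, counting error only). Having passed the filter through the TET1-CD libraries, ADAM33 had an adjusted p of 0.00784 by edgeR. The fitted log2 fold change of 3.22 depends on how counts near 0 are treated and ran from 2.55 to 4.24 over the 10 alternatives that tested the gene. At 0.37 and 0.27 FPKM, ADAM33 stayed among the lowest tested members in TET1-CD cells. Of the fibroblast markers, COL1A1 was higher in the same libraries, and PDGFRB was at 1.04 and 0.750 in EV against 1.25 and 1.27 CPM in TET1-CD cells. COL1A2, COL3A1, DCN, LUM and PDGFRA stayed near 0, and a link of these markers to ADAM33 was not tested.

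The most abundant sheddases did not pass the test with all 4 libraries. ADAM9 had 4744 and 3630 counts in EV against 4273 and 4899 in TET1-CD cells, which did not overlap after scaling (log2 fold change 0.15, SE 0.06, adjusted p = 0.122, edgeR). Without EV replicate 1 the log2 fold change of ADAM9 was 0.23, and without EV replicate 2 it was 0.072. ADAM10, which releases Notch and E-cadherin fragments, had 2815 and 2063 counts in EV against 2175 and 2352 in TET1-CD cells, with overlapping groups (log2 fold change -0.08, SE 0.07, adjusted p = 0.468, edgeR). Without EV replicate 2 the log2 fold change of ADAM10 was -0.19, and without EV replicate 1 it was 0.024. ADAM15 had a log2 fold change of -0.13 (SE 0.06, adjusted p = 0.134, edgeR) and ADAM12, which is also known as meltrin alpha, of -0.08 (SE 0.09, adjusted p = 0.585, edgeR). ADAM11, ADAM22 and ADAM23, which lack protease activity, did not pass either, at log2 fold changes of 0.62, -0.39 and 0.10, and were named after their values were seen. Of these, ADAM11 had enough counts for the test only through the TET1-CD libraries, where it is higher.

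**Figure D3:**
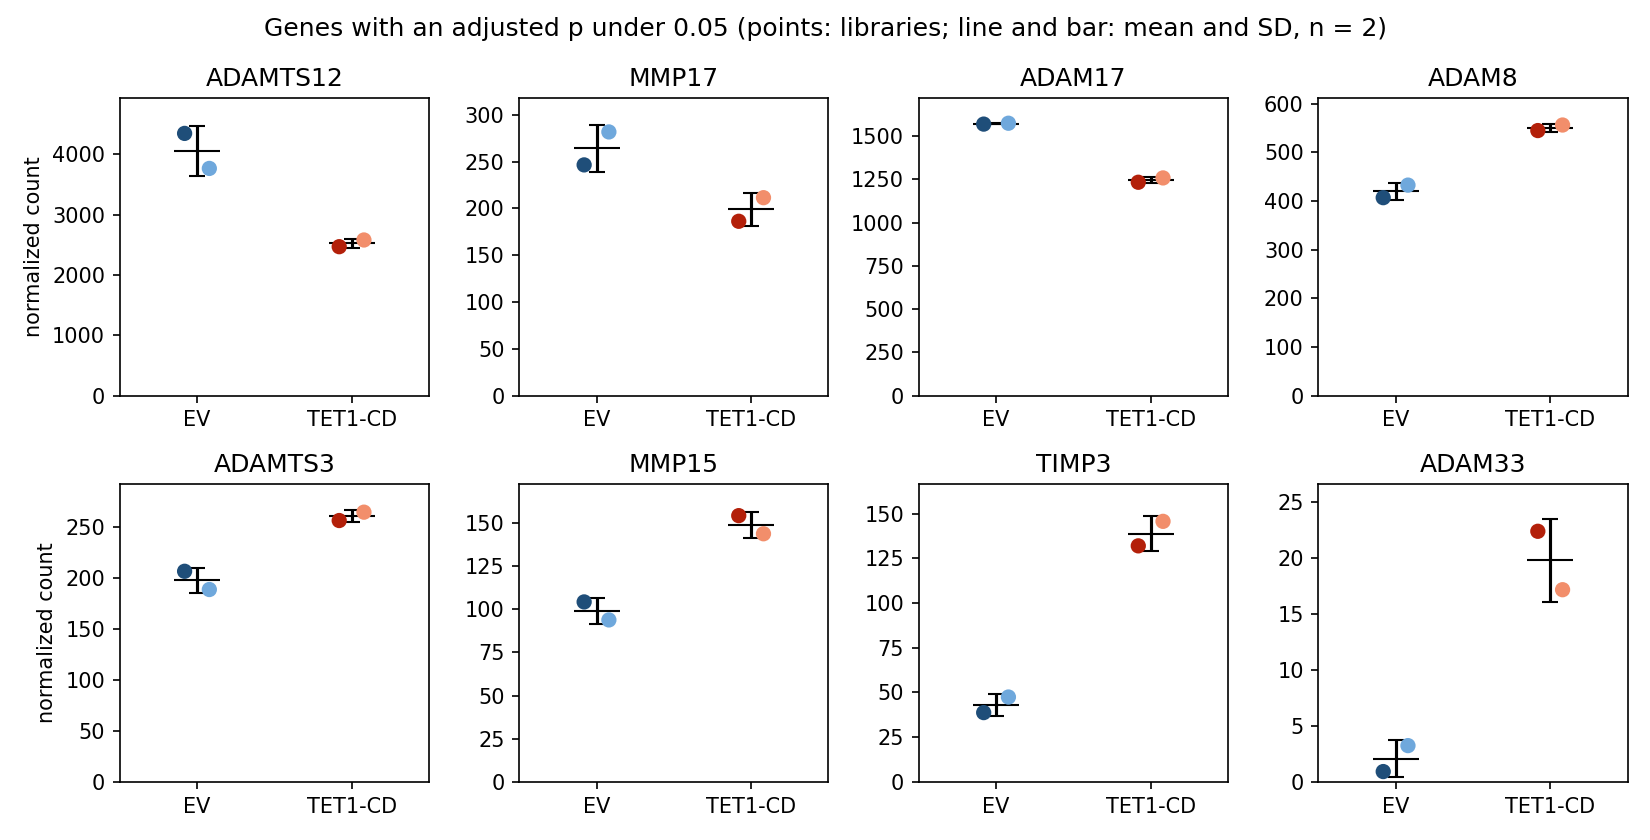
Normalized counts of the 8 genes with an adjusted p under 0.05, with 1 point for each library and a line and bar for the mean and SD of 2 libraries. The groups did not overlap in any panel, and the ADAM33 panel covers far lower counts than the ADAMTS12 panel.

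MMP14 and MMP17, which are held at the cell membrane, had the highest FPKM levels among the MMPs. MMP14, the membrane collagenase, had 5758 and 5164 counts in EV against 5748 and 5922 in TET1-CD cells (log2 fold change 0.11, SE 0.06, adjusted p = 0.221, edgeR). After scaling its groups did not overlap, and with 1 library left out its log2 fold change ran from 0.053 to 0.169. MMP15, also bound by a transmembrane segment, rose from 113 and 87 to 145 and 151 counts, with no overlap (log2 fold change 0.58, SE 0.14, adjusted p = 0.0191, edgeR), and DESeq2 gave an adjusted p of 0.131. Without TET1-CD replicate 1 or 2 the log2 fold change of MMP15 was 0.535 or 0.636. MMP17, held at the surface by a lipid anchor, fell from 267 and 261 to 175 and 222 counts without overlap (log2 fold change -0.40, SE 0.12, adjusted p = 0.0433, edgeR), and DESeq2 gave 0.185. Without EV replicate 2, TET1-CD replicate 1 or TET1-CD replicate 2 the log2 fold change of MMP17 was -0.308, -0.317 or -0.501. Its transcripts had unequal values, since ENST00000535291 had 229 and 207 fragments in EV against 126 and 132 in TET1-CD cells, whereas ENST00000360564 had 0 and 0 in EV against 27.1 and 34.1 in TET1-CD cells. These transcripts of MMP17 were looked at after the values of the gene were seen and were not tested. MMP16 had overlapping groups and a log2 fold change of 0.02 (SE 0.14, adjusted p = 0.94, edgeR).

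The secreted MMPs were at low levels. Of 9 MMP genes within 435.2 kb of chromosome 11, from 102391239 to 102826463, 4 had enough counts, namely the collagenases MMP1 and MMP13 and the stromelysins MMP3 and MMP10. MMP1 had 119 and 112 counts in EV against 116 and 139 in TET1-CD cells, which did not overlap after scaling (log2 fold change 0.15, SE 0.14, adjusted p = 0.505, edgeR). MMP10 had 13 and 13 counts in EV against 5 and 8 in TET1-CD cells, without overlap (log2 fold change -0.98, SE 0.53, adjusted p = 0.228, edgeR). It had enough counts for the test only through the EV libraries, where it is high. Like MMP3 and MMP13, MMP10 was named after its values were seen. MMP3 and MMP13 had log2 fold changes of -0.20 and 0.49 (adjusted p = 0.625 and 0.314, edgeR), so that none of the 4 passed the test. Outside the cluster, MMP19 had 181 and 183 counts in EV against 145 and 144 in TET1-CD cells (log2 fold change -0.32, SE 0.14, adjusted p = 0.139, edgeR). Without EV replicate 1 the log2 fold change of MMP19 was -0.45, and without EV replicate 2 it was -0.201.

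Summed over each family, the means of the groups were within 1.06-fold of each other for the MMP, ADAM and TIMP genes and further apart for the ADAMTS genes. The MMP sums were 341.9 and 355.7 CPM in EV against 383.3 and 357.0 CPM in TET1-CD cells, a log2 ratio of 0.09. The ADAM sums were 693.8 and 640.6 CPM in EV against 670.0 and 665.6 CPM in TET1-CD cells, a log2 ratio of 0.00, and the groups overlapped. The TIMP sums were 427.0 and 489.0 CPM in EV against 486.2 and 474.8 CPM in TET1-CD cells, a log2 ratio of 0.07, with overlap as well. The ADAMTS sums were 338.3 and 303.7 CPM in EV against 251.7 and 252.0 CPM in TET1-CD cells, with no overlap and a log2 ratio of -0.35. ADAMTS12 carried this difference, since the log2 ratio was 0.17 without it. An exact permutation test, two-sided, gave p = 0.3333 for MMP and ADAMTS and 1.0 for ADAM and TIMP, and 0.3333 is the smallest p that 2 against 2 libraries allow. The ratio of summed TIMP to summed MMP FPKM was 2.17 and 2.77 in EV against 2.30 and 2.43 in TET1-CD cells, so the TET1-CD values lay between the EV values.

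**Figure D4:**
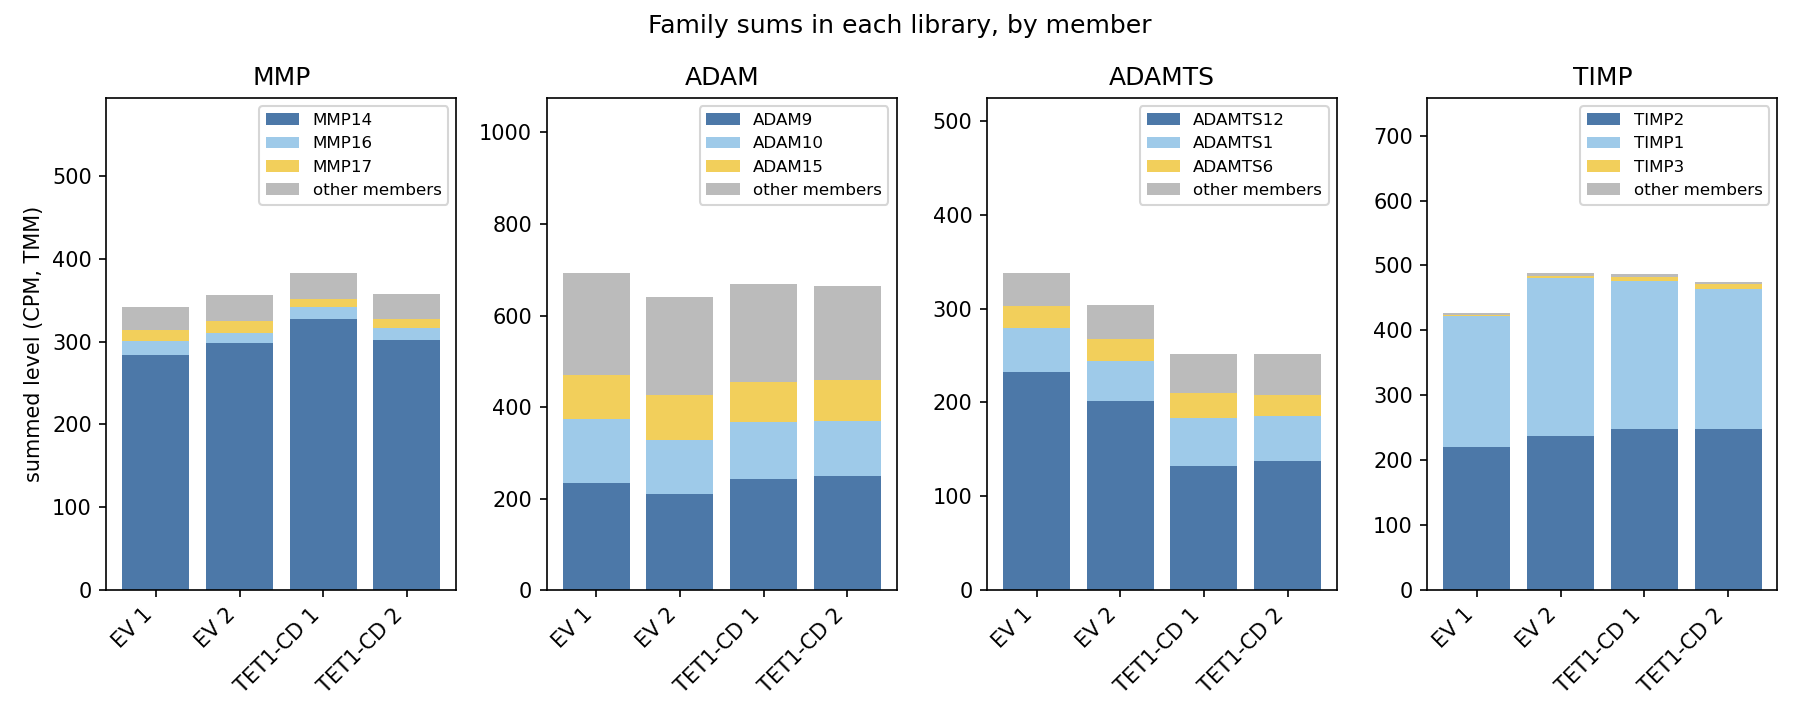
Summed CPM of each family in each library, stacked by the 3 members with most counts and the rest. The ADAMTS columns are lower in the TET1-CD libraries (251.7 and 252.0 CPM) than in the EV libraries (338.3 and 303.7 CPM), and ADAMTS12 forms most of each.

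Of 67 related genes in 9 lists, 48 had enough counts for a test. The lists were written with earlier results of these data known, so their shares cannot support a difference from other genes. The adjusted p was under 0.05 in 21 of these (43.8%, beside 19.7% of all genes tested), 8 higher and 13 lower, and 3 also had a fold change of at least 2 (6.25%, beside 3.77%). These 3 were other metalloproteinases of the metzincin group. In the same list BMP1 fell from 610 and 541 to 396 and 492 counts, by less than the fold threshold (log2 fold change -0.36, SE 0.09, adjusted p = 0.0178, edgeR). DESeq2 gave an adjusted p of 0.0601 for BMP1, which was named after its values were seen. TLL1, a tolloid protease that processes procollagen and growth factor antagonists, rose from 13 and 8 to 25 and 37 counts (log2 fold change 1.56, SE 0.39, adjusted p = 0.0209, edgeR). Its relative TLL2 fell from 75 and 66 to 21 and 36 counts (log2 fold change -1.29, SE 0.26, adjusted p = 0.00759, edgeR). PAPPA, which cuts IGF-binding proteins, rose from 15 and 27 to 53 and 61 counts (log2 fold change 1.44, SE 0.33, adjusted p = 0.0147, edgeR). The groups did not overlap in TLL1, TLL2 or PAPPA. TLL1 had enough counts for the test only with the TET1-CD libraries, where it is high, so its call supports nothing about the list. With at least 10 counts asked of every library TLL1 was not tested. With 1 library left out the log2 fold change ran from 1.345 to 1.824 for TLL1 and from -1.645 to -1.03 for TLL2. For PAPPA it ran from 0.964 to 2.037, and it was below the fold threshold without EV replicate 1. The call of TLL1 was lost with DESeq2 (adjusted p = 0.0959).

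Of 8 zymogen activators tested, 4 rose and none fell (beside 19.7% called of all genes tested, 10.0% up and 9.61% down). Among them were the plasminogen activators PLAT (log2 fold change 0.72, adjusted p = 9.19e-05, edgeR) and PLAU (0.34, adjusted p = 0.00354, edgeR). Without TET1-CD replicate 2 the log2 fold change of PLAU was 0.268. Among the other inhibitors, TFPI2, a secreted inhibitor of serine proteases, had a log2 fold change of -0.32 (adjusted p = 0.0186, edgeR). Without TET1-CD replicate 1 or 2 that of TFPI2 was -0.401 or -0.246. RECK, a membrane-anchored inhibitor of MMPs, had a log2 fold change of -0.03 (adjusted p = 0.859, edgeR). LRP1, the receptor that takes up several of these proteases and TIMP3, fell by 0.40 on the log2 scale (adjusted p = 0.00119, edgeR). Of the 9 partners of ADAM10 and ADAM17, 2 rose and 3 fell (55.6% called, beside the same 19.7%). TSPAN33 had a log2 fold change of 0.99 (adjusted p = 0.00435, edgeR) and FRMD8 of 0.19 (adjusted p = 0.0464, edgeR), while TSPAN15, TSPAN5 and RHBDF2, which carries ADAM17 through the secretory pathway, had -0.69, -0.41 and -0.51 (adjusted p = 0.00884, 0.0101 and 0.0159, edgeR). Without TET1-CD replicate 1 or 2 the log2 fold changes were 0.932 or 1.053 for TSPAN33 and 0.171 or 0.214 for FRMD8. They were -0.878 or -0.512 for TSPAN15, -0.275 or -0.564 for TSPAN5 and -0.569 or -0.45 for RHBDF2. The call of FRMD8 was lost with DESeq2 (adjusted p = 0.155). VCAN, a proteoglycan that ADAMTS proteases cut, had a log2 fold change of -0.41 (adjusted p = 0.00896, edgeR), and of -0.336 without TET1-CD replicate 2. The genes of this paragraph up to here were named after their values were seen. All lists of this paragraph, the later ones included, were written with earlier results of these data known. Their shares beside all genes therefore cannot support a difference of a list. None of the 4 tested ADAMTS-like genes passed the adjusted p. Of the 12 AP-1 and ETS factors, which are known to act on MMP promoters, 4 fell and none rose (33.3% called, beside 9.61% of all genes tested that were lower): ETV1 (log2 fold change -0.54), ETV4 (-0.41), JUN (-0.23) and FOSL2 (-0.20), with adjusted p-values of 0.00309, 0.00398, 0.0195 and 0.0198 by edgeR. Without TET1-CD replicate 1 or 2 the log2 fold change was -0.245 or -0.203 for JUN and -0.215 or -0.193 for FOSL2. Without TET1-CD replicate 1 that of ETV4 was -0.375.

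RefSeq held 1 promoter window each for 38 of the 74 members, 23 of them tested. Another member had more than 1 window and was left out. The tested members had a median of 30 CpG sites in the window, from 2 to 47, and the members with too few counts a median of 4, from 0 to 42, beside a median of 14 over 34796 windows of the same length. At least 20 CpG sites were found in 17 of the 23 tested and 5 of the 15 other members, beside 41.1% of all windows. These shares describe the windows and carry no test. The RefSeq start does not always match the start of the gene in the files, and that of ADAMTS13, for example, lies 8009 bases downstream of it. Of the most abundant members, MMP14 had 10 and TIMP1 16 CpG sites in the window, while ADAM15 had 44, ADAM17 36, ADAM10 30 and ADAMTS12 24. TIMP2 and ADAM9 had no single window. ADAMTS14, with 42 CpG sites, was at 0 in every library.

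**Figure D5:**
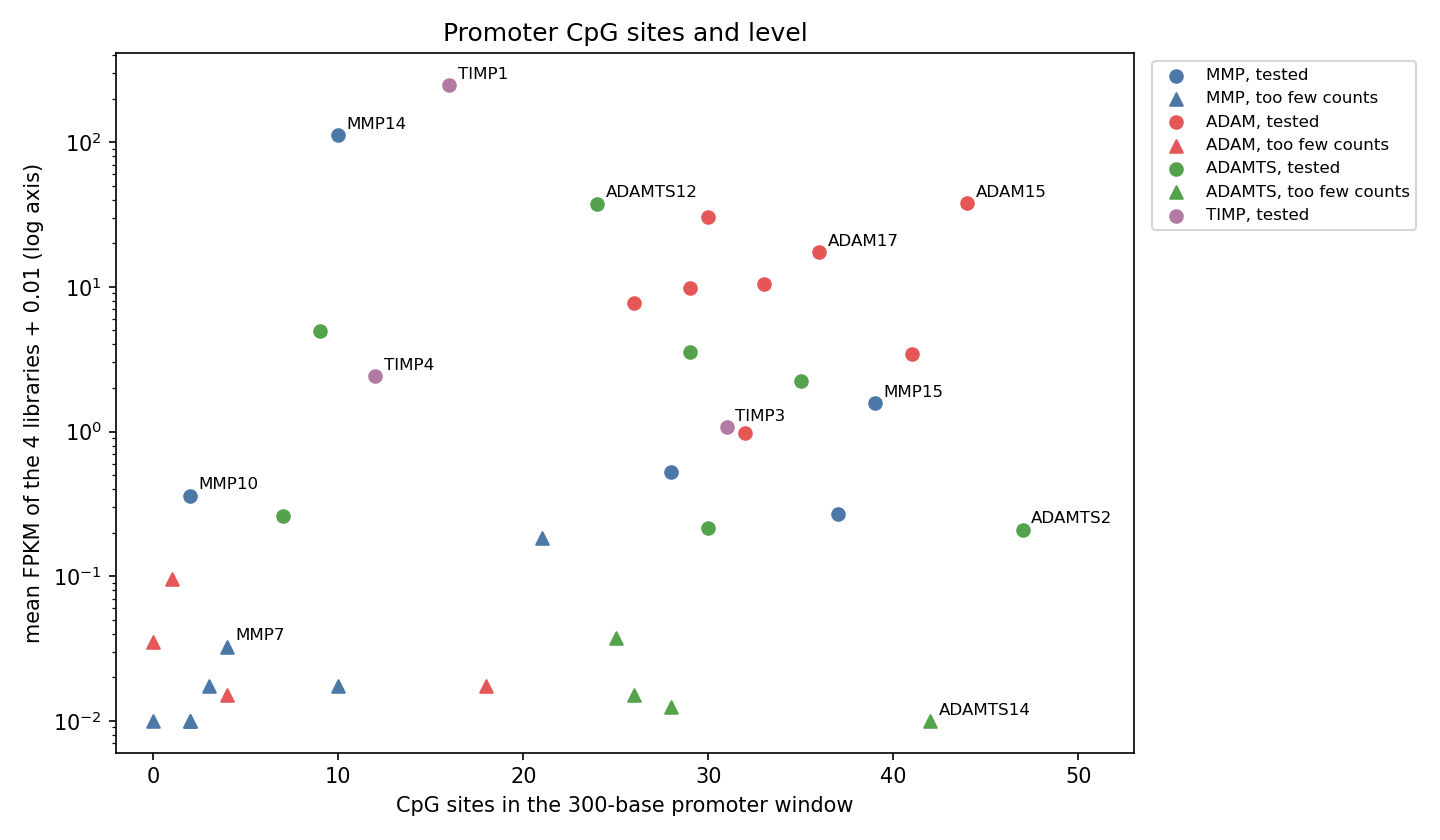
Number of CpG sites in the 300-base promoter window against the mean FPKM of the 4 libraries plus 0.01 on a log axis, for 38 members by family, with circles for tested genes and triangles for genes with too few counts. Most triangles lie at the lower left, and ADAMTS14, with 42 CpG sites and 0 counts, lies at the lower right.

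The windows were searched on both strands for 3 motifs. The GC box GGGCGG, which binds SP1, was in 25 of the 38 windows (65.8%, beside 44.9% of all windows), among them those of TIMP3, ADAMTS12 and ADAM17. TATAAA was in 7 (18.4%, beside 11.6%), 6 of them MMP genes, including MMP10. The AP-1 motif, TGAGTCA or its reverse complement TGACTCA, was in 1 window (2.63%, beside 4.96%), that of MMP7. MMP1, MMP3, MMP9, MMP12 and MMP13 were among the members without a single window, so their promoters were not searched. GC box matches contain a CpG, so these counts share letters with those of the CpG sites.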

How the data were processed

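RNAseq was performed on 2 EV and 2 TET1-CD libraries of T24 cells from poly(A) or rRNA-depleted RNA, with Illumina sequencing. The authors deposited, for each transcript and library, an estimated count of fragments and an FPKM value, which is scaled to transcript length and library size. The submitters' processing notes name cutadapt 1.9.1, HISAT2 2.0.1, HTSeq 0.6.1, DESeq2 and hg19. The tool that made the estimated counts, the strand setting and the annotation release are not given in the sources used here.

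For each gene, the estimated counts of its transcripts were added up and rounded to whole numbers. edgeR 4.0.16 (glmQLFit and glmQLFTest, TMM, filterByExpr, no block) in R 4.3.3 was run on all 4 libraries, with Benjamini-Hochberg adjustment over 14573 genes. The study used a 2-fold threshold and a p of 0.05, without stating an adjustment, and the adjusted p was chosen here. The SE of a log2 fold change is its size over the square root of F. FPKM values were summed per gene and used for levels. Alternatives were DESeq2 1.42.0, RLE normalization, library size only, limma-voom (limma 3.58.1), no filter, a minimum of 10 counts per library, a replicate block and leaving out each library. The test was tried on simulated data.

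The genes named were the members with an adjusted p under 0.05, all TIMPs, the 5 most abundant MMP, ADAM and ADAMTS genes, members near 0 in 1 group, related genes past both thresholds, and AP-1 and ETS factors with an adjusted p under 0.05. The value of 1 related gene is not reported here. The members and lists were chosen with earlier results of these data known. Between the libraries of a group, chi-square per gene was 6.41 (EV) and 2.75 (TET1-CD), where counting error alone gives about 1.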

Additional observations from a re-analysis of the deposited data

How the results depend on the processing

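ADAMTS12 and TIMP3 passed the adjusted p under every alternative that kept all libraries. The count of members with an adjusted p under 0.05 was 8, and it was 5 with DESeq2 and between 2 and 11 when 1 library was left out. With a fold change of at least 2 as well, it was 2, and it was 1 with at least 10 counts in every library, where ADAM33 was not tested. With limma-voom it was 4, adding ADAMTS18 and ADAMTS2, which passed the filter only through the TET1-CD libraries. Of the related genes 3 passed both thresholds, and 2 did so with DESeq2 and 4 with limma-voom. Without the member with most counts, the log2 ratio of the family sums was -0.08 for ADAM, 0.17 for ADAMTS and -0.05 for MMP. With 1 library left out it was -0.055 to 0.06 for ADAM, -0.43 to -0.27 for ADAMTS, 0.03 to 0.14 for MMP and -0.025 to 0.17 for TIMP. With 1 library left out, log2 fold changes near 0 lay on both sides of it for ADAM10 (-0.192 to 0.024), ADAM12 (-0.195 to 0.044), ADAMTS6 (-0.071 to 0.2), ADAMTS7 (-0.078 to 0.23), MMP16 (-0.17 to 0.243), TIMP1 (-0.147 to 0.14) and TIMP4 (-0.561 to 0.186). TIMP1 was also above 0 with library size only (0.009) and with limma-voom (0.004). The cause of these changes was not tested. With 1 library left out, the spread is estimated from the 2 libraries of the other group alone. Same-numbered libraries did not deviate together (correlation 0.01). With the replicate block the counts were 8 and 2, 4 related genes passed both thresholds, FRMD8 lost its call (adjusted p = 0.0516, edgeR), and TIMP1 was at 0.001. Depth limits the 36 members without a test, and with 2 libraries per group the spread of a single gene is borrowed from all genes.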
